A study of Mus musculus with 6 samples.

Results

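The genes described are the chromatin remodelers and histone-modifying enzymes, taken as every symbol in the count table that begins with Kdm, Kmt, Setd, Hdac, Kat, Chd, Arid, Brd or Dnmt and a digit, or with Smarc, together with Tet1, Tet2, Tet3, Ezh1 and Ezh2. The rule uses names and no measured value. It found 106 of the 35186 symbols, of which 99 are names of genes and 7 are antisense or pseudogene symbols, and they fall into 12 symbol families. Messenger RNA was sequenced from memory B cells sorted from the spleen of C57BL/6J mice for binding the hapten antigen NP. The WT group holds 3 libraries labelled wild type. The DKO group holds 3 libraries labelled Nix-/-Bnip3-/-, that is, lacking the mitophagy receptor genes Bnip3l (Nix) and Bnip3. Each library came from about 1000 cells. The labels give no age, sex or immunization, do not say which cells lacked the genes, and do not tie libraries to animals, so p-values measure a spread that may be technical. WT and DKO below stand for the labels the libraries carry.

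Histones carry acetyl and methyl groups that enzymes add ("writers") and remove ("erasers") and that other proteins bind ("readers"). Acetylation by the Kat enzymes generally goes with open chromatin and is removed by the Hdac enzymes, while methylation by the Kmt, Setd and Ezh enzymes, removed by the Kdm enzymes, can mark active or silent genes depending on the lysine. Remodelers of the Smarc and Chd families use ATP to move or evict nucleosomes, and Dnmt and Tet enzymes add and oxidize methyl groups on DNA. In B cells, Ezh2, Kmt2d, Arid1a, Tet2 and Dnmt3a are known for roles in the germinal centre or in lymphoma.

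Of the members, 71 had enough counts to be tested and 35 did not. Totals were 312908 to 517057 counts per library, and 17831 to 18486 symbols had counts in a WT library against 23580 to 24787 in a DKO library. TMM, a scaling that aligns the bulk of genes between libraries, gave factors of 0.695 to 0.812 and 1.28 to 1.38. Values below are raw counts or normalized CPM, counts scaled to a common library size. After TMM 1 count was worth 3.86 to 5.25 normalized CPM in a WT library and 1.84 to 2.26 in a DKO library. Raw counts given alone therefore lean towards DKO, and a gene with more raw counts there can be lower after scaling. The targeted gene Bnip3l (chromosome 14, 66985239 to 67008877, build mm10) went against the labels in its mean, with 1, 8 and 0 against 10, 16 and 41 counts, WT against DKO, and Bnip3 (chromosome 7, 138890836 to 138909519) had 25, 62 and 6 against 2, 24 and 11. Both pairs of groups overlapped, and neither gene passed the edgeR test (adjusted p = 0.539 and 0.412). The deleted exons are not named, so these counts check the labels only in part.

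B cell markers were uneven in the counts, and 5 of the 10 listed had enough to be tested. Cd79a, a signalling subunit of the B cell receptor, had 3, 0 and 0 against 0, 2 and 4 counts, WT against DKO, and its partner subunit Cd79b had 0, 1 and 6 against 2, 4 and 5. The transcription factor gene Ebf1 had 25, 16 and 8 against 17, 29 and 26 and the leukocyte gene Ptprc 32, 17 and 18 against 97, 60 and 71. The 10 B cell markers together held 294 to 543 in WT against 366 to 525 in DKO, in normalized CPM. Memory B cell markers held 104 to 277 in WT against 243 to 314 in DKO. Lists for germinal centre B cells, plasma cells, T cells, neutrophils, dendritic cells and erythroid cells overlapped between the groups as well. Some of these sums were as high as those of the B cell markers. T cell markers held 188 to 987 against 145 to 225, WT against DKO, and neutrophil markers 158 to 378 against 120 to 1241. Dendritic cell markers held 214 to 2610 against 390 to 525. Among them Zbtb46 had 7, 30 and 19 against 97, 112 and 93 counts and Itgax 8, 16 and 471 against 38, 31 and 76. The sum of the 7 monocyte and macrophage markers counted did not overlap, with 47 to 315 in WT against 400.4 to 792 in DKO. Of the 5 tested, 3 were higher in DKO after scaling. Itgam had 1, 9 and 21 against 81, 181 and 147 counts and Lyz2 4, 0 and 10 against 35, 92 and 206. Csf1r had 0, 43 and 5 against 15, 10 and 27 and Spic 2, 13 and 12 against 4, 9 and 13. Hbb-bs and Hba-a2 were the markers at 0 in all 6 libraries. The part of other cells in the values below was not tested, and in bulk RNA fewer cells of a type and less RNA per cell cannot be told apart.

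By the quasi-likelihood test of edgeR, 0 of the 71 tested members differed between the groups at an adjusted p under 0.05, and 0 of all 8895 tested genes passed (0%). At an unadjusted p under 0.05, 1 member was higher in the libraries labelled DKO, against 5.49% of all tested genes, and 6 were lower, against 6.59%. Leaving out any 1 of the DKO libraries left 1 member lower, where 2.74% to 3.01% of all genes were. Higher were 2 members without DKO library 2 (3.71% of all genes), 2 without WT library 1 (8.05%), 4 without WT library 2 (7.5%) and 5 without WT library 3 (8.53%). The log2 fold change, here always DKO minus WT, was above 0 for 39 of 71 members (54.9%), and for 45.5% of all tested genes. Its median was 0.17 over the members and -0.17 over all genes. Scaling moves both: with library totals alone the medians were 0.98 and 0.62, and 50 members (70.4%) lay above 0. Read against the median of all genes, the members' median was 0.34 higher after TMM and 0.36 higher with totals alone, and 42 members (59.2%) lay above it in both cases. With 1 library left out in turn the medians of Setd and Ezh stayed above 0 and that of Kat below, while the sign of the other 9 family medians turned at least once. Each of these fits filtered the counts again and tested 10473 to 11814 genes, so the members behind a median could change too. The sign of single genes turned at least once for 26 of the 71 tested members (36.6%), against 42% of all tested genes. The range given beside each standard error below is the lowest and highest log2 fold change of the gene with 1 library left out, and names the library where the sign turned or the value fell by over 1.5 times.

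DESeq2, run as an alternative on the whole table, called 2 members, both lower: Hdac5 (adjusted p = 0.0168) and Kdm5d (adjusted p = 0.0474), where it called 1.52% of genes with an adjusted p lower and 0.425% higher. Run only on the genes that passed the filter, where it called 2.57% of genes higher and 4.51% lower, it also called Arid4a, higher (adjusted p = 0.0253). It gave no adjusted p for Smarcal1, Kat7 and Dnmt3l. limma-voom called 0 members, and 0 of all 8895 tested genes. At an unadjusted p under 0.05 it had 2 members higher and 6 lower, where 4.01% and 5.19% of all genes were.

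**Figure D1:**
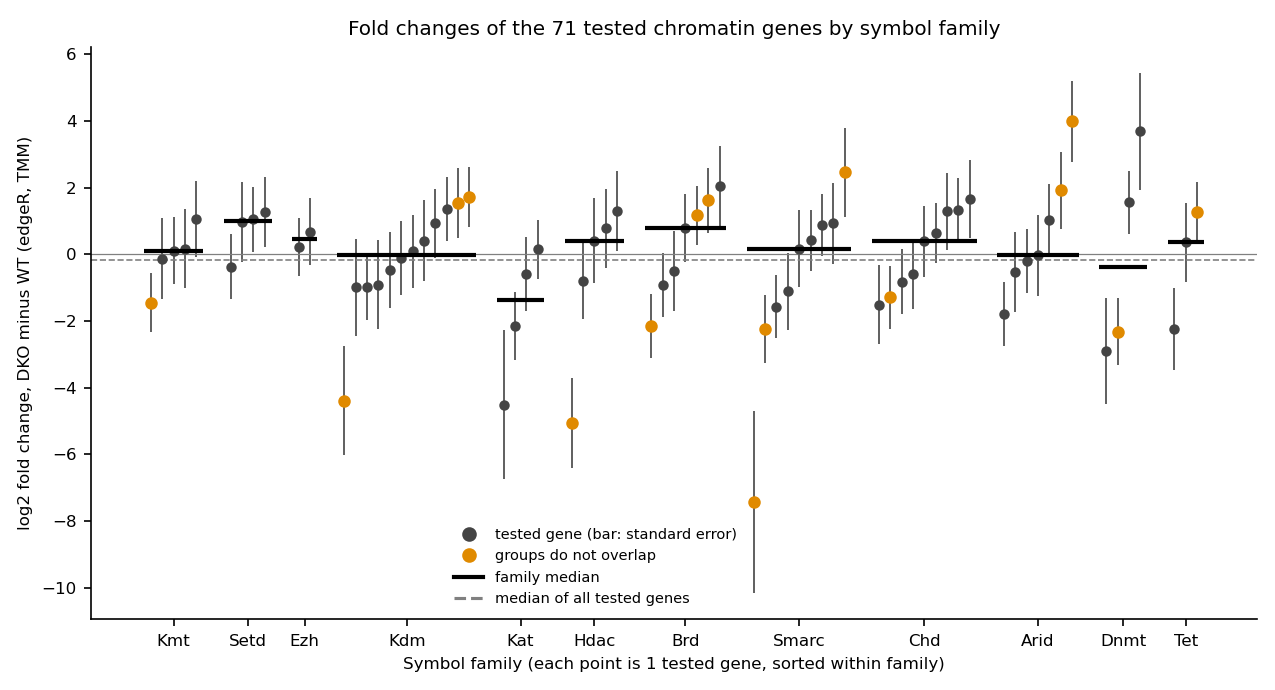
Log2 fold change, DKO minus WT, of each tested member (points, with standard error), sorted within its symbol family along the horizontal axis, in orange where the groups did not overlap. Thick bars are family medians and the dashed line is the median of all tested genes (-0.17); the lowest values, Smarcal1 at -7.43, Hdac5 at -5.06 and Kat7 at -4.51, and the highest, Arid4a at 3.99, stand furthest from it.

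For 16 tested members the 3 libraries of a group all lay on the same side of the other group's. The 8 higher in the libraries labelled DKO included Kdm1a, Kdm2a, Brd2, Smarcc2, Arid4a, Arid5b and Tet1, and were 11.3% of the members where 12.8% of all tested genes did so. The 8 lower were Hdac5, Kdm5d, Smarcal1, Smarca2, Dnmt3a, Brd3, Kmt2d and Chd9, 11.3% where 6.39% of all genes did. The summed monocyte and macrophage markers were separate in the direction of the first set, though only 3 of the 5 tested markers lay above 0. Their part in these values was not tested. All 8 of the first set stayed separate under each of the 4 other scalings tried. Of the second set, Hdac5 and Brd3 did so, Kdm5d overlapped under upper quartile scaling and library totals alone, and the other five overlapped with library totals alone. With library totals alone 23 members were separate and higher (23.8% of all genes) and 2 separate and lower (2.51%).

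The promoters of Kdm1a and Hdac5 are shown because these genes had the smallest p among the separate members, in each direction, that matched the RefSeq promoter table (build GRCm38.p6). Each runs 5′ to 3′ on the gene's strand, from 250 bases before the annotated start to 50 after, at chr4:136602674-136602973 (minus strand) for Kdm1a and chr11:102230123-102230422 (minus strand) for Hdac5. Capitals mark matches on either strand to the GC box, spelled GGGCGG, to the CCAAT box, spelled by its name, and to the E-box, spelled CACGTG. In both windows no match overlaps another.
Kdm1a: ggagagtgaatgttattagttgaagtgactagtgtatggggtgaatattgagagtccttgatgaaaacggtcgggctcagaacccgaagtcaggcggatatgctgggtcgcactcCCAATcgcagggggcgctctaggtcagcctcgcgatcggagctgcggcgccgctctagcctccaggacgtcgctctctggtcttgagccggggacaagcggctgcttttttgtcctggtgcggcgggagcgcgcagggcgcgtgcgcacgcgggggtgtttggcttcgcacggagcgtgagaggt
Hdac5: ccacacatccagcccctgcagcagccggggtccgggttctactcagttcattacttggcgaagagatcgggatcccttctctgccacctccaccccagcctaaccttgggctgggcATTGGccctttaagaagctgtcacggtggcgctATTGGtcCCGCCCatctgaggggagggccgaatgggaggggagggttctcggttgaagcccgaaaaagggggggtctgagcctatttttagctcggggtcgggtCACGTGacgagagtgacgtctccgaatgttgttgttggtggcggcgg

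The Kdm1a window holds 29 CpG and 1 CCAAT box, and that of Hdac5 18 CpG, 1 GC box, 2 CCAAT boxes and 1 E-box. Member promoters in the table (107 windows of 77 members) were rich in CpG, with a median of 24 against 18 in windows of all tested genes and 7.0 in all promoters. A GC box was in 66.4% of member windows, 55.1% of those of tested genes and 35.7% of all. A CCAAT box was in 32.7%, 36.4% and 37.4%, and an E-box in 5.61%, 9.17% and 7.15%. The tested members were also long, with a median exonic length of 9596 bases against 5582 for the tested genes with a length. Levels are therefore compared between genes only per kilobase.

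**Figure D2:**
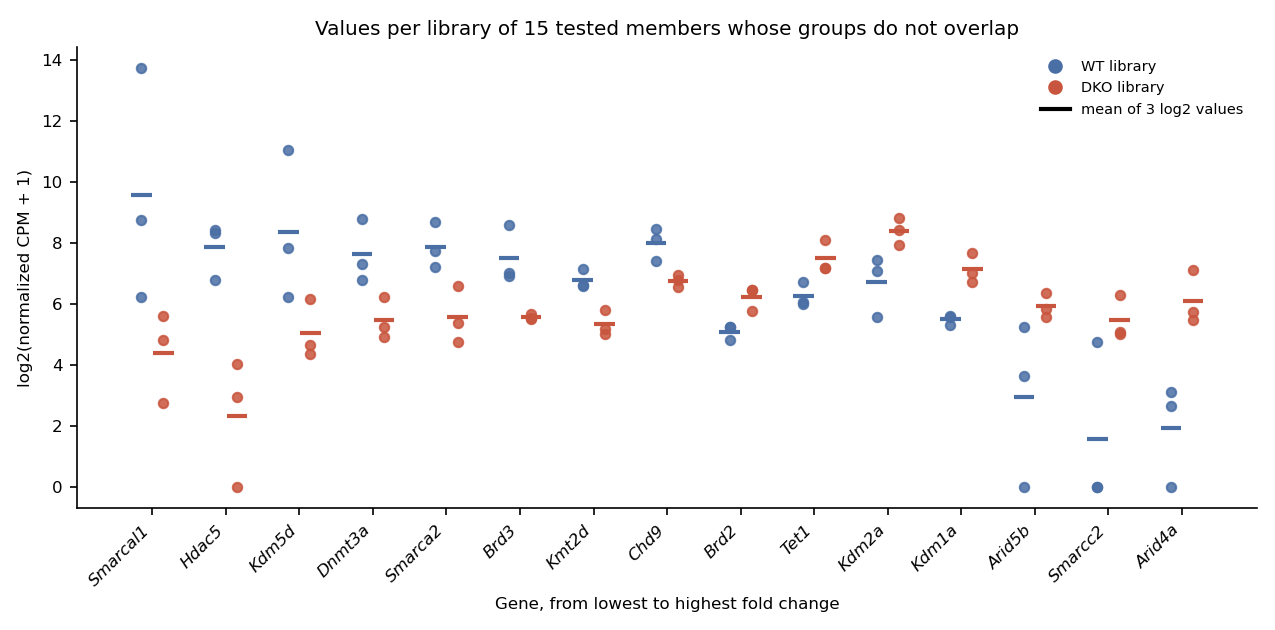
Log2(normalized CPM + 1) in each library for 15 tested members whose groups did not overlap, ordered by fold change. Points are single libraries and bars the mean of the 3 log2 values. For Smarcal1 (2616 counts) and Kdm5d (543 counts) 1 WT library stands far above the others, while Brd2 and Kdm1a have WT values close together, at only 7 to 10 counts a library.

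Of the histone methylation writers none passed the test, and 8 of 11 tested members lay above 0, with a median log2 fold change of 0.23 (1.02 with library totals alone). In the Kmt family, trithorax-type enzymes that methylate histones at active promoters and enhancers, 3 of 5 lay above 0 (median 0.11). Kmt2d, an enhancer methyltransferase, had 27, 25 and 18 counts (WT 1, 2 and 3) against 14, 19 and 28 (DKO 1, 2 and 3), or 111 ± 26.3 against 40.3 ± 12.2 normalized CPM (SD, n = 3). After TMM all libraries labelled DKO lay below all WT libraries, while with library totals alone the groups overlapped. The log2 fold change was -1.45 (SE 0.89, range -1.61 to -1.16, adjusted p in edgeR = 0.495). Its paralog Kmt2c had 29, 7 and 54 against 212, 136 and 121 counts, WT against DKO, and a value of 1.06 (SE 1.13, range 0.60 without WT 2 to 1.92); the groups overlapped through WT library 3. Kmt2a, with 7, 102 and 109 against 152, 177 and 127 counts, was at -0.13 (SE 1.21, range -0.59 to 0.57 without WT 3), and this sign turned under 9 of the 18 alternatives tried. Kmt2e, a protein with a SET domain, had 0 counts in WT library 3 and was at 0.17 (SE 1.19, range -0.34 without WT 3 to 1.14), and its sign turned without DKO library 2 as well. Kmt2b was at 0.11 (SE 0.999, range -0.36 without DKO 2 to 0.76).

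Among the 9 Setd genes 4 were tested, and 3 of 4 lay above 0 (median 1.01). Setd2, which methylates histones in transcribed gene bodies, had 15, 28 and 36 against 166, 117 and 96 counts, WT against DKO, a mean of 125 ± 57.3 against 259 ± 102 normalized CPM (SD, n = 3) and a log2 fold change of 1.05 (SE 0.97, range 0.84 to 1.54). In raw counts its lowest library labelled DKO held 96 against 36 in the highest WT library, but after TMM DKO library 3 lay just below WT library 3. Setd7 had 1, 10 and 2 against 38, 15 and 12 counts and was at 1.27 (SE 1.06, range 0.57 without DKO 1 to 2.52), and Setd5 had 10, 13 and 64 against 59, 62 and 317 and was at 0.98 (SE 1.20, range -0.10 without DKO 3 to 2.55). Setd1b, a promoter methyltransferase, was at -0.37 (SE 0.99, range -0.74 to 0.83 without WT 2). The Polycomb methyltransferases Ezh1 and Ezh2, which methylate histones at silenced genes, were at 0.68 (SE 1.004, range 0.27 without WT 2 to 1.82) and 0.23 (SE 0.87, range 0.16 to 0.57). Counts of Ezh1 were 45, 8 and 15 against 62, 120 and 98 and those of Ezh2 13, 24 and 18 against 54, 61 and 34. The libraries of Ezh2 overlapped after scaling, at 85.1 ± 14.9 against 100.1 ± 30.1 normalized CPM, a difference smaller than the SD of the DKO libraries.

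Histone demethylases were split, with 6 of 12 tested members above 0 and a median of -0.0097, which became 0.86 with library totals alone. Kdm1a, known as LSD1, is the demethylase of the CoREST corepressor complex. It had 9, 10 and 9 counts (WT 1, 2 and 3) against 89, 57 and 67 (DKO 1, 2 and 3), or 44.3 ± 4.91 against 145 ± 50 normalized CPM (SD, n = 3). The 3 WT values were nearly equal, though at 9 or 10 counts each their closeness does not measure how well the libraries agreed. All lay below the libraries labelled DKO, with a log2 fold change of 1.71 (SE 0.90, range 1.55 to 1.998, adjusted p in edgeR = 0.446). Kdm2a, a demethylase that binds CpG islands, had 9, 35 and 33 against 198, 186 and 125 counts, WT against DKO, without overlap, and a value of 1.53 (SE 1.05, range 1.23 to 1.98). Its paralog Kdm2b had 22, 134 and 110 against 130, 137 and 169 and was at -0.47 (SE 1.15, range -0.84 to -0.048 without WT 3), with groups that overlapped.

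The Kdm5 enzymes remove the methyl mark of active promoters, and they lay on both sides. Kdm5d (chromosome Y, 897788 to 956786), the Y-linked member, had 44, 543 and 14 counts (WT) against 31, 13 and 10 (DKO). Its log2 fold change was -4.40 (SE 1.64, range -5.08 to -1.96 without WT 2, adjusted p in edgeR = 0.39); WT library 2 held 83.4% of its summed normalized CPM. Of the other Y-linked genes, Ddx3y had 19, 4 and 2 against 3, 5 and 1 counts, Uty 2, 2 and 12 against 3, 9 and 17 and Usp9y 8, 8 and 9 against 7, 13 and 12, Eif2s3y had 0, 1 and 0 against 3, 3 and 7, and Zfy1 had 0, 0 and 0 against 20, 2 and 4. The X-linked Xist had 10, 14 and 10 against 15, 53 and 15. The X-linked paralog Kdm5c had 0, 1 and 0 against 1, 14 and 4 counts and was not tested. How any reads shared by the paralogs Kdm5c and Kdm5d were counted is not known. Kdm5b had 72, 388 and 34 against 142, 283 and 130 counts and was at -0.91 (SE 1.34, range -1.29 to 0.44 without WT 2). Kdm5a, with 12, 24 and 53 against 90, 210 and 122, was at 0.93 (SE 1.04, range 0.64 to 1.89). The other tested Kdm genes had groups that overlapped. Kdm1b was at -0.99 (SE 1.44, range -1.91 to 2.45 without WT 1) and Kdm3b at -0.99 (SE 0.97, range -1.29 to 0.056 without WT 2). Kdm4a was at 0.088 (SE 1.09, range -0.32 without WT 1 to 2.06), Kdm4b at 0.41 (SE 1.20, range -0.48 without DKO 3 to 1.69) and Kdm7a at -0.11 (SE 1.10, range -0.60 to 0.70 without WT 2). Kdm3a was at 1.35 (SE 0.96, range 0.69 without DKO 2 to 1.82).

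Of the 4 tested acetyltransferases 3 lay below 0 (median -1.37, or -0.62 with library totals alone and 0.46 with no filter on low counts), and for Kat7 and Kat6a a single library carried that distance. Kat7, also called HBO1, had 18, 2647 and 46 counts (WT) against 74, 60 and 96 (DKO). WT library 2 held 92.8% of its summed normalized CPM. Its log2 fold change was -4.51 (SE 2.25, range -5.01 to -0.079 without WT 2). Kat6a, also called MOZ, had 67, 11 and 5 against 57, 51 and 28 counts and was at -0.59 (SE 1.10, range -1.01 to 1.48 without WT 1), which turned to 0.13 with library totals alone. Kat2b, also called PCAF, had 21, 46 and 6 against 6, 8 and 22 counts and was at -2.16 (SE 1.03, range -2.79 to -1.52, adjusted p in edgeR = 0.419), with groups that overlapped. Kat6b, the Kat6a paralog, had WT values that were nearly equal, with 25, 34 and 25 against 91, 53 and 69 counts or 131 ± 0.436 against 146 ± 55.1 normalized CPM (SD, n = 3), and lay at 0.15 (SE 0.89, range -0.036 without DKO 1 to 0.47). At so few counts an SD this small is below counting error and does not measure how closely the WT libraries agreed.

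Deacetylases gave the smallest p of the tested members. Hdac5 (chromosome 11, 102194432 to 102230166), a class IIa deacetylase that shuttles between cytoplasm and nucleus, had 21, 83 and 66 counts (WT 1, 2 and 3) against 3, 0 and 8 (DKO 1, 2 and 3). In normalized CPM this was 259 ± 129.96 against 7.43 ± 7.77 (SD, n = 3), and all WT libraries lay above all those labelled DKO. The log2 fold change was -5.06 (SE 1.34, range -6.06 to -4.37, adjusted p in edgeR = 0.389). The other class IIa enzymes lay elsewhere. Hdac4 had 3, 45 and 1 against 109, 59 and 68 counts, WT against DKO, and was at 1.30 (SE 1.19, range 0.83 without WT 3 to 3.95), overlapping through WT library 2. Hdac7 had 6, 6 and 45 against 24, 54 and 7 and was at -0.79 (SE 1.15, range -1.37 to 1.10 without WT 3). Whether the paralogs differed from one another was not tested. Of the class I enzymes Hdac1 was tested, at 0.41 (SE 1.28, range -0.100 without WT 3 to 2.93) with 35, 6 and 0 against 25, 70 and 45 counts, and Hdac2, Hdac3 and Hdac8 were too low. The family median was 0.41, with 3 of 5 above 0, Hdac11 among them at 0.79 (SE 1.19, range 0.39 without WT 1 to 3.22).

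Bromodomain proteins bind acetylated lysines, and all 7 were tested, 4 above and 3 below 0 (median 0.79). Brd2 and Brd3, which recruit the transcription machinery to acetylated chromatin, each had groups that did not overlap, in opposite directions. Brd2 had 7, 7 and 7 against 38, 29 and 45 counts, or 33.5 ± 5.55 against 75.5 ± 19.2 normalized CPM (SD, n = 3), and a log2 fold change of 1.17 (SE 0.90, range 1.08 to 1.47, adjusted p in edgeR = 0.586). Brd3 lay the other way, with 73, 33 and 23 against 20, 27 and 23 counts, 209.9 ± 149 against 46.5 ± 2.8 normalized CPM and a value of -2.16 (SE 0.96, range -2.38 to -1.34 without WT 1, adjusted p in edgeR = 0.405). Its libraries labelled DKO were close together while WT library 1 held 49.6% of its summed level. Brd1, a scaffold of acetyltransferase complexes, had 2, 3 and 13 against 17, 20 and 153 counts and was at 2.04 (SE 1.21, range 0.46 without DKO 3 to 3.52). Brd8, a subunit of the Tip60 acetyltransferase complex, was at -0.51 (SE 1.20, range -0.96 to 1.80 without WT 1), which turned to 0.21 with library totals alone. Brd7 and Brd9, subunits of forms of the SWI/SNF complex, were at 0.79 (SE 1.02, range -0.074 without DKO 2 to 1.43) and -0.91 (SE 0.96, range -1.19 to -0.17 without WT 3).

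The Smarc symbol family, which holds SWI/SNF and ISWI remodelers and some other genes, lay on both sides of 0, with 5 of 9 tested genes above it (median 0.17). SWI/SNF complexes carry Smarca4 (BRG1) or Smarca2 (BRM) as their ATPase. Smarca2 had 28, 55 and 78 against 18, 14 and 49 counts, WT against DKO, or 256 ± 137 against 53.8 ± 36.4 normalized CPM (SD, n = 3), without overlap, and a log2 fold change of -2.24 (SE 1.01, range -2.82 to -1.66, adjusted p in edgeR = 0.41). Smarca4 had 158, 28 and 46 against 52, 126 and 99 counts and was at -1.12 (SE 1.16, range -1.52 to 0.12 without WT 1). The scaffold subunit Smarcc2 had 5, 0 and 0 against 14, 42 and 17 counts and was at 2.46 (SE 1.33, range 1.88 to 7.23). Its highest value was that without WT library 1, which rests on WT libraries at 0 and is no bound. Its paralog Smarcc1 had 3, 112 and 20 against 80, 114 and 121 and was at 0.17 (SE 1.16, range -0.30 without WT 1 to 1.82). Smarca5, an ISWI ATPase, had 26, 12 and 41 against 16, 23 and 28 and was at -1.57 (SE 0.95, range -1.94 to -0.96 without WT 3). Smarcal1 (chromosome 1, 72583251 to 72633134), which anneals DNA at stalled replication forks, had 2616, 112 and 14 counts (WT) against 12, 26 and 3 (DKO). Its log2 fold change of -7.43 (SE 2.73, range -8.05 to -3.15 without WT 1) was the lowest of the tested members, and WT library 1 held 95.9% of its summed normalized CPM. The core subunits Smarcb1 and Smarce1 were at 0.42 (SE 0.92, range 0.14 without WT 2 to 1.11) and 0.89 (SE 0.92, range 0.76 to 1.43), and the helicase gene Smarcad1 at 0.93 (SE 1.22, range 0.43 without WT 1 to 3.78).

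In the Chd family 5 of 9 tested members lay above 0 (median 0.39). Chd9 had 53, 90 and 32 against 41, 59 and 63 counts, or 264 ± 90.5 against 108 ± 14.7 normalized CPM (SD, n = 3), lower in all libraries labelled DKO after scaling and overlapping with library totals alone, with a log2 fold change of -1.29 (SE 0.94, range -1.46 to -1.0004, adjusted p in edgeR = 0.564). The NuRD ATPases Chd3 and Chd4 lay on opposite sides, at 1.65 (SE 1.17, range 0.40 without DKO 2 to 2.42) with 11, 1 and 7 against 17, 123 and 21 counts and -1.51 (SE 1.18, range -1.90 to -0.33 without WT 1) with 167, 73 and 20 against 80, 40 and 96. Chd8 had 21, 10 and 6 against 69, 43 and 110 counts and was at 1.32 (SE 0.96, range 1.06 to 2.15). Chd1 and Chd2, which bind methylated histones at active genes, were at 0.63 (SE 0.90, range 0.45 to 0.96) and -0.82 (SE 0.99, range -1.20 to 0.051 without WT 2). Chd6, Chd7 and Chd1l were at -0.58 (SE 1.06, range -1.05 to 0.87 without WT 1), 0.39 (SE 1.06, range -0.038 without WT 2 to 1.48) and 1.29 (SE 1.16, range 0.82 without WT 3 to 3.96), with groups that overlapped.

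ARID proteins bind DNA and belong to several complexes, and 3 of 7 tested members lay above 0 (median -0.031, or 0.72 with library totals alone). Arid4a (chromosome 12, 71015990 to 71098592), a retinoblastoma-binding subunit of the Sin3 deacetylase complex, had 0, 2 and 1 counts (WT 1, 2 and 3) against 19, 74 and 27 (DKO 1, 2 and 3). In normalized CPM it was at 4.33 ± 3.95 against 77.2 ± 51.4 (SD, n = 3), without overlap, and its log2 fold change was 3.99 (SE 1.21, range 3.40 to 4.75, adjusted p in edgeR = 0.39). Its paralog Arid4b, part of the same complex, had 34, 10 and 36 against 17, 16 and 25 counts and was at -1.79 (SE 0.97, range -2.19 to -1.39). Arid5b had 0, 3 and 7 against 25, 44 and 24 counts without overlap and was at 1.92 (SE 1.14, range 1.42 to 3.31). The SWI/SNF subunit Arid1a had 6, 22 and 121 against 135, 126 and 102 counts and was at -0.031 (SE 1.22, range -0.48 to 2.13 without WT 3), a sign that turned under 12 of the 18 alternatives tried; 121 of its 149 WT counts were in WT library 3. Arid1b and Arid2 were at -0.20 (SE 0.95, range -0.44 to 0.53 without WT 1) and 1.04 (SE 1.06, range 0.60 without WT 3 to 2.46), and Arid5a at -0.53 (SE 1.20, range -1.08 to 0.069 without WT 2).

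The DNA methyltransferases lay on both sides, 2 of 4 above 0 (median -0.38, or 0.43 with library totals alone), and of the Tet dioxygenases, which oxidize methylated cytosine, 2 of 3 lay above 0 (median 0.36). Dnmt3a, a de novo methyltransferase, had 30, 113 and 21 against 13, 40 and 19 counts, WT against DKO, or 235 ± 177 against 46.6 ± 23.7 normalized CPM (SD, n = 3), without overlap after scaling, and a log2 fold change of -2.32 (SE 1.01, range -2.72 to -1.47 without WT 2, adjusted p in edgeR = 0.404). Its paralog Dnmt3b had 9, 13 and 23 against 53, 132 and 144 counts and was at 1.56 (SE 0.96, range 1.39 to 2.20, adjusted p in edgeR = 0.497); the raw counts of its 3 libraries labelled DKO all exceeded the WT counts, and after TMM WT library 3 lay just above DKO library 1. Whether these paralogs differed in their change was not tested. Dnmt1, the maintenance enzyme, had 1, 390 and 33 against 21, 46 and 48 counts and was at -2.90 (SE 1.59, range -3.41 to -0.21 without WT 2). Dnmt3l, a cofactor without catalytic activity, had 2, 3 and 19 against 663, 13 and 25, with 88.5% of its summed level in DKO library 1, and was at 3.69 (SE 1.75, range 0.027 without DKO 1 to 5.59). Tet1 had 12, 17 and 20 against 64, 149 and 75 counts without overlap and was at 1.27 (SE 0.91, range 1.01 to 1.62, adjusted p in edgeR = 0.561). Tet2 had 51, 20 and 4 against 1, 22 and 17 and was at -2.24 (SE 1.22, range -2.67 to -0.89 without WT 1). Tet3 had 0, 3 and 14 against 18, 21 and 15 and was at 0.36 (SE 1.18, range -0.14 without WT 1 to 2.55).

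**Figure D3:**
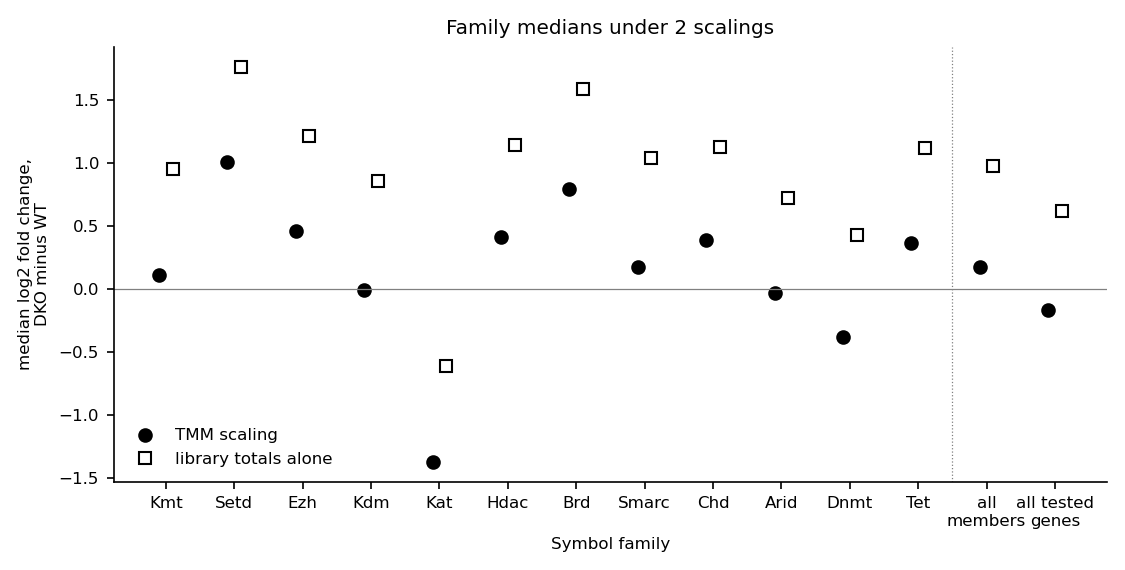
Median log2 fold change, DKO minus WT, of each symbol family, of all tested members and of all tested genes, after TMM (filled) and with library totals alone (open). The members move together with all genes, from 0.17 to 0.98 and from -0.17 to 0.62, and Kat stays below 0 in both.

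Most members were uneven between the libraries of a group, more so in WT. The SD was a median 89.8% of the mean over the WT libraries and 38.3% over those labelled DKO, against 92.6% and 49.7% for all tested genes. WT was the more variable group for 54 of the 71 tested members (76.1%) and for 79.1% of all tested genes. For 15 members (21.1%) over 50% of the summed level came from 1 library, against 29.7% of all tested genes; in 11 of them it was a WT library. Member symbols with at least 1 count numbered 90, 93 and 82 of 106 in WT against 100, 98 and 100 in DKO. Of the tested members 4, 1 and 6 were at 0 in WT against 0, 1 and 0 in DKO. Per kilobase of exon, the highest group means in the libraries labelled DKO among tested members were those of Dnmt3l, most of it in DKO library 1, at 175 normalized CPM, Dnmt3b at 41.9 and Kdm1a at 28.1. In WT they were those of Smarcal1 at 825, Kat7 at 636 and Dnmt1 at 76.2. Each of these WT means came mostly from 1 library. WT library 1 held 95.9% of the summed level of Smarcal1, and WT library 2 held 92.8% for Kat7 and 78.9% for Dnmt1.

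**Figure D4:**
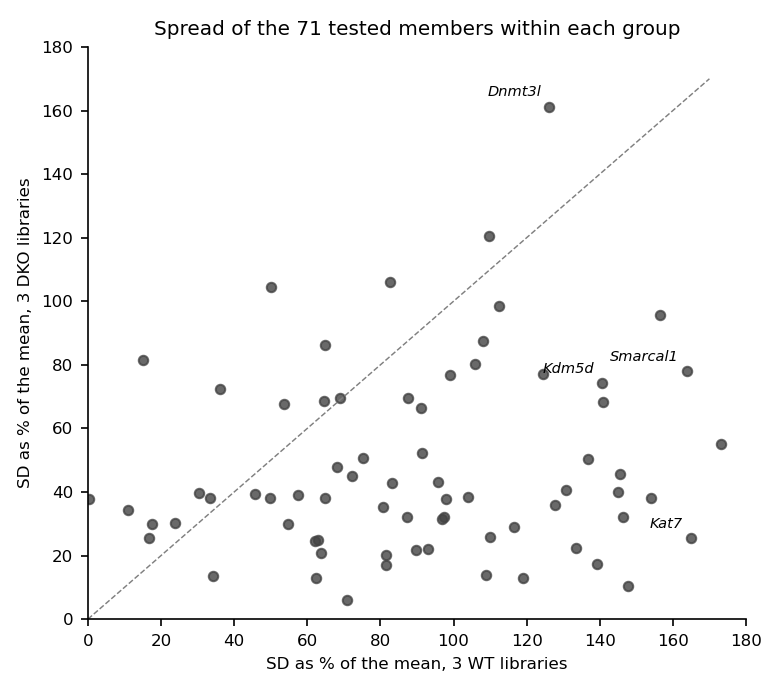
SD as a percentage of the mean over the 3 WT libraries (horizontal) and the 3 libraries labelled DKO (vertical) for each of the 71 tested members, with the dashed line where both are equal. Most points (54) lie below the line, and labels name the members with over 80% of their summed level in 1 library.

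The 35 untested members comprise 28 genes and all 7 antisense or pseudogene symbols, with a median of 27 counts over the 6 libraries. Among the 33 with a count, 5 were higher in all libraries labelled DKO (15.2%, against 8.21% of all untested symbols with a count) and 1 was lower (3.03%, against 3.02%). Named after their values were seen, these are Hdac3, a class I deacetylase of corepressor complexes, with 1, 1 and 0 against 8, 6 and 8 counts, Hdac8 with 1, 1 and 1 against 4, 8 and 5, Kat5, the catalytic subunit of the Tip60 complex, with 0, 1 and 0 against 5, 11 and 4, Setd3 with 3, 2 and 0 against 7, 14 and 22, Arid3a with 1, 0 and 0 against 4, 11 and 7, and Kdm8, the lower one, with 3, 3 and 2 against 3, 0 and 0. These separations are those after TMM. For Setd3 DKO library 1 lay at 15.83 normalized CPM against 15.67 in WT library 1. Kdm8 had 3 raw counts in DKO library 1 against 2 in WT library 3, or 6.79 against 10.5 normalized CPM. At this depth 3 counts in a library were worth 5.52 to 15.8 normalized CPM. Kdm6b, a demethylase of Polycomb-marked genes, failed the filter with 209, 2 and 1 against 4, 9 and 6 counts, nearly all in WT library 1. Its paralog Kdm6a had 1, 1 and 3 against 4, 4 and 10. Setd8, an older symbol of Kmt5a, had 6, 5 and 1 against 32, 25 and 4. Hdac2 had 0, 17 and 6 against 4, 1 and 7 counts, Hdac6 18, 0 and 2 against 6, 6 and 1, Hdac9 2, 3 and 1 against 3, 3 and 20 and Hdac10 11, 1 and 4 against 2, 35 and 9. The SWI/SNF subunits Smarcd1, Smarcd2 and Smarcd3 had 1, 0 and 0 against 0, 4 and 7, 0, 3 and 50 against 7, 5 and 11 and 1, 0 and 0 against 24, 0 and 0. Dnmt3bos and Kdm6bos were at 0 in all libraries, and all 60 counts of Dnmt3aos, a symbol antisense to Dnmt3a, were in DKO library 1. Strand was not stated, so reads of such pairs cannot be told apart. The other untested members, Setd1a, Setd4, Setd6, Kdm4c, Kdm4d, Kat2a, Kat8, Smarca1, Chd5, Arid3b, Arid3c, Chd3os, Dnmt3l-ps1, Kat2b-ps and Smarca5-ps and the Kdm5c given above, had groups that overlapped.

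Partners and related enzymes whose symbols fall outside the rule were taken from 8 lists. Genes named from a list were picked because they had its smallest edgeR p, so they do not stand for the rest of it. Of 196 such genes counted, 121 were tested, 76 above and 45 below 0, with a median of 0.40; 0 passed the edgeR test, and 5 higher and 3 lower were at an unadjusted p under 0.05, where 5.49% and 6.59% of all genes were. Without overlap, 18 were higher (14.9%, against 12.8% of all genes) and 3 lower (2.48%, against 6.39%). The list of demethylase relatives had 4 of 7 tested genes above 0 (median 0.66). In it Rcor1, the CoREST scaffold that binds Kdm1a, had 1, 9 and 1 counts (WT) against 44, 173 and 133 (DKO), without overlap, and a log2 fold change of 3.82 (SE 1.16, range 3.50 to 5.38, adjusted p in edgeR = 0.39). Jmjd4 had 1, 1 and 7 against 44, 73 and 34 counts and was at 2.71 (SE 1.11, range 2.27 to 4.45). Deacetylase partners had 10 of 13 tested genes above 0 (median 0.21). Sap18, a Sin3-associated protein, had 0, 1 and 1 against 15, 22 and 26 counts without overlap and was at 3.61 (SE 1.17, range 3.19 to 4.16, adjusted p in edgeR = 0.39).

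Acetyltransferase genes and partners had 16 of 27 tested genes above 0 (median 0.24). The coactivator Ncoa3 had 7, 3 and 18 against 121, 140 and 226 counts without overlap and was at 2.77 (SE 1.11, range 2.33 to 3.82, adjusted p in edgeR = 0.39), and Tada3, an adaptor of the Kat2a and Kat2b complexes, had 1, 2 and 1 against 11, 35 and 20 and was at 2.73 (SE 1.04, range 2.40 to 3.14). Methyltransferases under other symbols had 12 of 17 tested genes above 0 (median 0.44); Prmt2 and Prmt5, arginine methyltransferases, were at -3.39 (SE 1.56, range -3.89 to 1.14 without WT 2) and -3.37 (SE 1.80, range -3.89 to 2.47 without WT 1). COMPASS partners, subunits of the Kmt2 complexes, had 4 of 6 tested genes above 0 (median 0.33). Wdr5, their shared core, had 15, 3 and 1 against 75, 63 and 76 counts without overlap and was at 2.19 (SE 1.11, range 1.76 to 4.08, adjusted p in edgeR = 0.43), and Ash2l was at 0.97 (SE 1.05, range 0.51 without WT 2 to 1.98). Polycomb partners had 5 of 11 tested genes above 0 (median -0.33). Rbbp4, a histone-binding subunit of several complexes, had 10, 10 and 4 against 40, 64 and 52 counts without overlap and was at 1.46 (SE 0.91, range 1.25 to 1.83), and Jarid2 had 10, 146 and 16 against 38, 27 and 26 and was at -1.91 (SE 1.11, range -2.32 to -0.097 without WT 2). The bromodomain and remodelling list had 21 of 34 tested genes above 0 (median 0.46), with Vps72 at -2.46 (SE 1.22, range -2.90 to -0.71 without WT 3) and Brpf1 at -2.18 (SE 1.07, range -2.58 to -0.86 without WT 1). DNA methylation partners had 4 of 8 tested genes above 0 (median -0.29), with the glycosylase gene Tdg at 2.38 (SE 1.15, range 1.57 without DKO 3 to 3.65) and Apobec1 at -2.44 (SE 1.20, range -2.995 to -1.10 without WT 2).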

How the data were processed

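The authors deposited unnormalized read counts for each gene symbol, 1 column a library; columns were matched to samples by name and 0 were left over. Per the labels' protocols, libraries enriched for polyadenylated RNA were made from about 1000 sorted cells each with the QIAseq FX Single Cell RNA kit. CASAVA, STAR, edgeR, R 3.6.3 and mm10 appear, without roles, in the submitters' processing notes; the counting tool and strand setting are not given there.

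Group differences came from edgeR 4.0.16 under R 4.3.3, with limma 3.58.1: filterByExpr (minimum count 10), TMM, and the robust quasi-likelihood F test of DKO against WT over all 6 libraries without covariates, adjusted by Benjamini-Hochberg over 8895 genes. Each standard error is the absolute log2 fold change over the root of its F statistic. DESeq2 1.42.0 and limma-voom were alternatives, beside other scalings and filters, the replicate block and left-out libraries. The edgeR steps were tested on simulated data. GENCODE (mouse release 21, mm10) gave positions and exonic lengths, matched by symbol for 104 of 106 members, and promoters are from RefSeq. Python 3.11.15 made the summaries.

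Members, families, lists and tests were chosen with earlier results of these data known. Named genes were Bnip3l and Bnip3, and in each family the 3 tested members with the smallest p and the one with the highest mean. Members whose groups did not overlap or that DESeq2 called were named as well. From each other list the 2 tested genes with the smallest edgeR p were taken. Other members were named to account for the rest. A few genes that this rule names are not reported here.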

Additional observations from a re-analysis of the deposited data

How the results depend on the processing

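No tested member passed an adjusted p of 0.05 in edgeR under any scaling, filter or left-out library. None passed at an adjusted p of 0.1, without robust estimation or in limma-voom. Of all 8895 genes, 0 passed 0.05 in the main edgeR fit and 0 in limma-voom. For the other edgeR fits the count over all genes is not given here. The DESeq2 fits called 2 and 3 members, beside the shares of all genes given above. The shared replicate numbers do not establish pairs: deviations from the group means correlated across genes by 0.0227 to 0.0368 between same-numbered libraries, though each library correlated best with its own number. For each fit over all 6 libraries only the results that moved most are listed. Medians are listed where the shift exceeded their SD between replicates, from 0.15 for Tet to 1.59 for Hdac. Unlisted medians moved less but could turn sign. Among them were Dnmt 0.34 and Kdm 0.51 with the replicate block, Dnmt 0.49 in limma-voom, and Kdm 0.32 and Arid 0.23 with upper quartile scaling. In DESeq2 members numbered 2 past adjusted p 0.05, and the sign turned for Arid1a 0.013. In DESeq2 on the filtered genes members numbered 3 past adjusted p 0.05, 3 higher at an unadjusted p under 0.05 (against 8.79% of all genes), 11 lower at an unadjusted p under 0.05 (against 14.1% of all genes). In limma-voom members numbered 2 higher at an unadjusted p under 0.05 (against 4.01% of all genes), and medians were all tested members 0.67, Kdm 0.96, Kat -0.78, Arid 0.73, Tet 1.19, and the sign turned for Kmt2a 0.52, Kat6a 0.25, Brd8 0.31, Arid1a 0.73, Prmt5 0.090. With a mean CPM of at least 10 members numbered 2 higher at an unadjusted p under 0.05 (against 6.12% of all genes), and medians were Kat -0.41, Smarc -0.69, Tet 0.54, and the sign turned for Kmt2a 0.069, Arid1a 0.16. With no filter on low counts members numbered 3 higher at an unadjusted p under 0.05 (against 5.76% of all genes), 13 higher without overlap (against 9.53% of all genes), and medians were all tested members 0.63, Kat 0.46, Brd 1.13, Arid 0.99, Tet 0.71, and the sign turned for Kmt2a 0.19, Arid1a 0.32. With library totals alone members numbered 9 higher at an unadjusted p under 0.05 (against 12.3% of all genes), 3 lower at an unadjusted p under 0.05 (against 2.47% of all genes), 23 higher without overlap (against 23.8% of all genes), 2 lower without overlap (against 2.51% of all genes), and medians were all tested members 0.98, Kmt 0.95, Setd 1.76, Ezh 1.22, Kdm 0.86, Kat -0.62, Brd 1.59, Smarc 1.04, Chd 1.13, Arid 0.72, Tet 1.12, and the sign turned for Kmt2a 0.68, Kat6a 0.13, Brd8 0.21, Arid1a 0.72. With the replicate number as a block members numbered 1 lower at an unadjusted p under 0.05 (against 2.48% of all genes), and medians were all tested members 0.60, Kat -0.63, Arid 1.06, Tet 1.24, and the sign turned for Kmt2a 0.39, Kat6a 0.24, Brd8 0.33, Arid1a 1.06, Prmt5 0.20. With upper quartile scaling members numbered 2 higher at an unadjusted p under 0.05 (against 7.26% of all genes), 3 lower at an unadjusted p under 0.05 (against 4.8% of all genes), and medians were all tested members 0.43, Tet 0.63, and the sign turned for Kmt2a 0.16, Arid1a 0.23. With TMMwsp scaling the sign turned for Arid1a 0.012. Without mitochondrial and ribosomal protein genes the sign turned for Arid1a 0.046. The fits with a library left out filtered the counts again, so the members behind a family median could change along with the libraries. With 1 library left out in turn, members numbered 1 to 8 lower at an unadjusted p under 0.05 (against 2.74% to 8.09% of all genes), 1 to 5 higher at an unadjusted p under 0.05 (against 3.71% to 8.53% of all genes), 10 to 20 higher without overlap (against 15.9% to 22.6% of all genes), 8 to 15 lower without overlap (against 9.04% to 12.2% of all genes) (fewer libraries separate more easily). Medians then ran over Setd 0.57 (without DKO 1) to 1.11 (without WT 2), Smarc -0.73 (without DKO 1) to 0.25 (without DKO 2), Chd -0.18 (without DKO 1) to 0.57 (without WT 1), Brd -0.074 (without DKO 2) to 1.43 (without WT 1), Arid 0.069 (without WT 2) to 0.48 (without DKO 3), Tet -0.14 (without WT 1) to 1.62 (without WT 3), Ezh 0.31 (without WT 2) to 0.99 (without WT 1), Kdm -0.28 (without DKO 3) to 0.72 (without WT 2), Kat -1.76 (without WT 3) to -0.53 (without WT 2), Kmt -0.19 (without WT 1) to 0.50 (without DKO 3), Hdac -0.17 (without WT 2) to 0.75 (without DKO 1), Dnmt -0.96 (without DKO 1) to 0.59 (without WT 2). Of the 59 genes followed under every alternative, those whose sign turned ran over Kmt2e -0.34 to 1.14, Kmt2a -0.59 to 0.57, Setd5 -0.10 to 2.55, Kdm5b -1.29 to 0.44, Kat6a -1.01 to 1.48, Hdac7 -1.37 to 1.10, Brd8 -0.96 to 1.80, Arid1a -0.48 to 2.13, Tet3 -0.14 to 2.55, Prmt2 -3.89 to 1.14, Prmt5 -3.89 to 2.47. DESeq2 on the filtered genes was added after the data were seen. The cause of these shifts was not tested. At this depth 35 of 106 were too low to test, and a member with 0 counts in a library may lie up to 5.52 to 15.8 normalized CPM there, counting error only.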
